A study of Mus musculus with 14 samples.

Results

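Zfp36, Zfp36l1, Zfp36l2, Btg1, Btg2, Rc3h1 and Zc3h12a encode proteins that shorten the life of messenger RNAs, and their own transcripts were followed in splenic regulatory T cells of mice. They are 7 of the 30284 genes in the tables and 7 of the 15775 genes with enough reads for testing. They were chosen by name, and they were proposed with the comparison between the genotypes already known, so the difference of each between the groups is a description, and its call in the fit over all genes supports nothing. RNA of cells positive for Foxp3 and YFP was sequenced from mice of strain C57/B6, with 1 to 2 animals per library. The KO-labelled mice had the genotype Tln1fl/fl Foxp3cre/wt, with floxed alleles of talin-1, the adaptor that activates integrins. The control mice were Tln1wt/wt Foxp3cre/wt, so both groups carried the Cre recombinase, which is driven by Foxp3. There were 6 KO-labelled and 8 control samples. Pairs of samples that share the first number of their title were added, which gave 3 KO-labelled and 4 control units. The labels used here give no ages and do not say what the second number of a title means.

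The Zfp36 family (tristetraprolin and its relatives) binds AU-rich elements in 3′ untranslated regions (UTRs) through CCCH zinc fingers. It brings in the CCR4-NOT complex, which removes the poly(A) tail. Btg1 and Btg2 lack an RNA-binding domain of that kind and connect deadenylases with the poly(A)-binding protein; both are known for keeping T cells quiescent. Rc3h1 (Roquin-1) binds stem-loops in mRNAs of T cell activation genes and recruits deadenylation and decapping factors, while Zc3h12a (Regnase-1) is an endonuclease that cuts overlapping stem-loop targets. Several of these factors are themselves encoded by short-lived mRNAs that are induced when cells are stimulated.

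The KO-labelled units held between 38811489 and 56109143 estimated reads in genes, and the control units between 12851425 and 39214264. Tln1 was not lower in the KO-labelled units, at 901 ± 113 CPM (read counts scaled to the size of the library), against 668 ± 128 CPM in control units (SD, n = 3 and 4; edgeR adjusted p = 0.126). The position of the loxP sites is not in the labels, and reads from the exons that remain are still counted, so Tln1 is a weak check of the labels, on which every direction below rests. Foxp3 was at 428 ± 76.1 CPM in KO-labelled units and at 419 ± 71 CPM in control units, and Cd4 at 557 ± 44.2 CPM and 627 ± 48.3 CPM. RNA of both genes was thus present in both groups. The summed level of 12 regulatory T cell markers was 2896 to 3919 CPM in KO-labelled units and 4573 to 5489 CPM in control units. The summed levels of markers of other cells were higher in every KO-labelled unit, though not every single marker was. The 12 B cell markers summed to 191 to 423 CPM in KO-labelled units and 38.2 to 106 CPM in control units, the 10 monocyte and macrophage markers to 291 to 754 CPM and 72.6 to 157 CPM, and the 11 neutrophil markers to 268 to 1621 CPM and 2 to 15.7 CPM. The 7 dendritic cell markers (43.3 to 71.1 CPM in KO-labelled units, 4.35 to 16.4 CPM in control units), the 10 cytotoxic lymphocyte markers (63.8 to 122 CPM and 38.8 to 49.3 CPM) and the 11 erythroid and platelet markers (147 to 2464 CPM and 9.96 to 79.5 CPM) were higher as well, and no marker of these lists was at 0 in all control units. In such bulk samples, fewer cells of a type and less RNA per cell cannot be told apart. The 24 early response genes summed to 6731 to 9361 CPM in KO-labelled units and 1686 to 5048 CPM in control units, whereas the heat shock genes overlapped (3707 to 5863 CPM and 2736 to 4112 CPM).

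The AU-rich word TATTTAT, the core that Zfp36 proteins bind, occurs in the 3′ UTRs of 5 of the 7 genes themselves: there are 3 words each in Zfp36, Zfp36l1 and Zfp36l2, 2 in Rc3h1 and 1 in Btg2, and none in Btg1 or Zc3h12a. One site per gene is shown as DNA on the strand of the mRNA, with the word in capitals (GRCm38, GENCODE M21 annotation). For the 3 Zfp36 genes and Rc3h1, the site whose word is flanked by T on both sides was taken, which makes the 9-base form TTATTTATT.
Zfp36, chr7:28376950-28376979, minus strand: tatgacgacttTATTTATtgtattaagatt
Zfp36l1, chr12:80108166-80108195, minus strand: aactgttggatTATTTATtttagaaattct
Zfp36l2, chr17:84184913-84184942, minus strand: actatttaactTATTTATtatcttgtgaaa
Rc3h1, chr1:160970043-160970072, plus strand: actttactcatTATTTATtgagatgaggag
Btg2, chr1:134077248-134077277, minus strand: aaatgaagagcTATTTATacatgttttttt
The words begin 590 bases after the stop codon in Zfp36, 1405 in Zfp36l1, 822 in Zfp36l2, 2257 in Rc3h1 and 103 in Btg2. Outside the word the sites differ in sequence.

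The promoters of the 3 genes with the higher levels in KO-labelled units are shown for their different composition of motifs, as RefSeq windows (GRCm38.p6) from 250 bases before to 50 bases after the start. Capitals mark a motif found by a search of both strands.
Zfp36, chr7:28379179-28379478, minus strand: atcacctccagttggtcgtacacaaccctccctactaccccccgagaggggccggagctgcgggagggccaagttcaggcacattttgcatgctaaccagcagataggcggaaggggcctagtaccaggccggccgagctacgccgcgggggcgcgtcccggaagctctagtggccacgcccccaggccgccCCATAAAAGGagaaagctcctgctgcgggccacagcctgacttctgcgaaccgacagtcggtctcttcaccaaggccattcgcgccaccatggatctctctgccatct
Btg2, chr1:134079106-134079405, minus strand: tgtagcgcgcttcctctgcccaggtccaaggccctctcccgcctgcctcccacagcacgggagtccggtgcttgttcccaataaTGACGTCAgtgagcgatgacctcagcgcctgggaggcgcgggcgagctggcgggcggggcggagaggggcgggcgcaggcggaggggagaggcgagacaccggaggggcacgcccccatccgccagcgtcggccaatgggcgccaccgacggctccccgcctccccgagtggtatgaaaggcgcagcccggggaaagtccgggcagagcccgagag
Zc3h12a, chr4:125127832-125128131, minus strand: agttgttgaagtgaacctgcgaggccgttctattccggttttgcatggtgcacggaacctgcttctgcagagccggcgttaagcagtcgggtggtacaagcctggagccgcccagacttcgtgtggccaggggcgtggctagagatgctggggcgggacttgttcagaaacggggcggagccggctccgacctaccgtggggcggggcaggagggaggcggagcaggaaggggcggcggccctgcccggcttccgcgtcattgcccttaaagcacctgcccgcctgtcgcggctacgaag
The capitals in Zfp36 are a CArG box, the site of serum response factor, 58 bases before the start; 1.63% of the 32851 promoters of this length hold one. Those in Btg2 are TGACGTCA, the cyclic AMP response element, 166 bases before the start, which 1.79% of promoters hold. The Zc3h12a window holds none of the motifs searched (TGACGTCA, CArG box, TGANTCA, NF-kB site and TATAAA). Among the 6 of the 7 genes with a RefSeq promoter, TGANTCA (7.81% of all promoters) occurs in Rc3h1 and Zfp36l1 and TATAAA (13.6%) in Btg1 and Zfp36l1; the NF-kB site (9.38%) occurs in none. These matches describe letters only. The RefSeq window of Zfp36 lies within the gene's span in GENCODE M21 (28376784 to 28380253), so its start is not the outermost start of that annotation.

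Of the AU-rich element binders, Zfp36 was higher in every KO-labelled unit, and its 2 paralogues overlapped between the groups. Zfp36 (ENSMUSG00000044786; GRCm38 chromosome 7, 28376784 to 28380253, minus strand, 2 exons), which encodes tristetraprolin, had 841, 1110 and 1033 CPM in KO-labelled units 1 to 3, against 414, 368, 304 and 440 CPM in control units 1 to 4. All 3 KO-labelled units were above all 4 control units. The fitted difference was 1.38 ± 0.17 on the log2 scale (SE), or 2.61-fold. Zfp36l1 (ENSMUSG00000021127; chromosome 12, 80107754 to 80113013, minus strand, 2 exons) had 528, 696 and 386 CPM in KO-labelled units, against 741, 663, 470 and 716 CPM in control units. Zfp36l2 (ENSMUSG00000045817; chromosome 17, 84183931 to 84187947, minus strand, 2 exons) had 806, 863 and 591 CPM in KO-labelled units, against 931, 829, 642 and 912 CPM in control units. The groups overlapped for both paralogues, KO-labelled unit 3 and control unit 3 being lowest in their groups. Their log2 differences were -0.27 ± 0.22 for Zfp36l1 and -0.14 ± 0.19 for Zfp36l2 (SE). Without KO-labelled unit 3 the value of Zfp36l2 was 0.01.

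The Zfp36 family was composed differently. Measured per length, in TPM (transcript abundance scaled by length and library), Zfp36 made up 55, 57.8 and 67.1% of the summed TPM of the 3 paralogues in KO-labelled units, against 32.2, 32.2, 34.5 and 34.2% in control units. The 4 control units lay within a narrow range, and every KO-labelled unit was above it. The summed TPM itself was 767, 1083 and 753 in KO-labelled units, against 691, 576, 522 and 661 in control units, so the groups did not overlap in the sum either. The shares and sums rest on a length of 1792 bases for Zfp36 in the deposited values, against 2790 bases in the annotation used here. A shorter length gives a higher TPM, in both groups. A minor spliced form, ENSMUST00000165114 of Zfp36l1, was listed at 5.39 TPM in KO-labelled unit 3 and at no more than 0.0731 TPM in the other units.

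**Figure D1:**
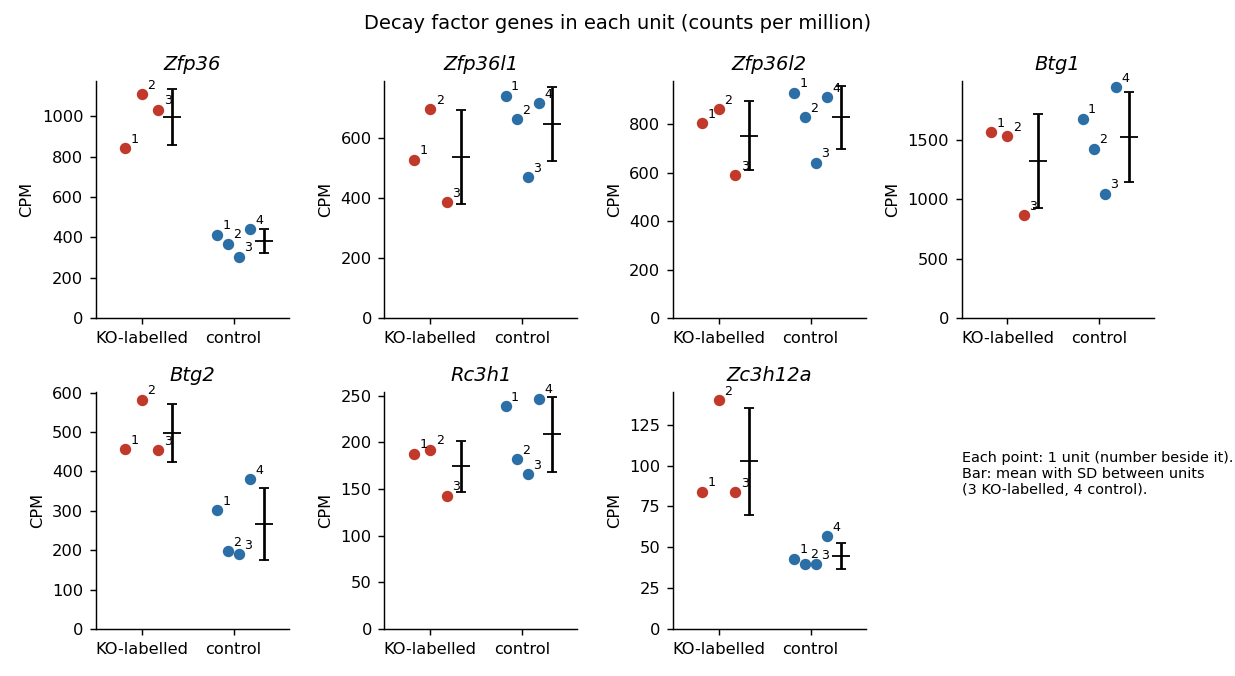
Level of each decay factor gene in CPM (linear axes from 0) in the 3 KO-labelled units (left, red) and the 4 control units (right, blue), with the mean and SD between units in black. The groups are apart for Zfp36, Btg2 and Zc3h12a and overlap for Zfp36l1, Zfp36l2, Btg1 and Rc3h1; KO-labelled unit 3 is low for each of these 4 genes.

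The BTG genes gave a similar contrast between paralogues. Btg1 (ENSMUSG00000036478; chromosome 10, 96617006 to 96622809, plus strand, 2 exons) had 1567, 1530 and 868 CPM in KO-labelled units, against 1677, 1427, 1047 and 1942 CPM in control units. The groups overlapped, and the log2 difference of -0.20 ± 0.26 (SE) changed sign without KO-labelled unit 3 (0.03) and with an offset for GC content and length (0.22). Btg2 (ENSMUSG00000020423; chromosome 1, 134075170 to 134079120, minus strand, 2 exons) had 457, 582 and 454 CPM in KO-labelled units, against 301, 197, 189 and 380 CPM in control units. The groups did not overlap, but control units 1 and 4 lay closer to the KO-labelled units than control units 2 and 3. The fitted difference was 0.90 ± 0.25 on the log2 scale (SE), or 1.87-fold, and it lay between 0.77 and 1.12 when 1 unit was left out. Btg2 made up 35.6, 41.8 and 49.7% of the TPM of the pair in KO-labelled units, against 25.4, 20.7, 25.4 and 27% in control units. The control units ordered Btg2 in the same way as the summed early response genes, with 5048 CPM of these in unit 4, 4019 in unit 1, 2037 in unit 2 and 1686 in unit 3. Zfp36, Zc3h12a, Btg1 and Rc3h1 had the same order of control units, and Zfp36l1 and Zfp36l2 did not. The part of those genes' level in the differences was not tested.

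The stem-loop factors differed from each other too. Zc3h12a (ENSMUSG00000042677; chromosome 4, 125118423 to 125127840, minus strand, 6 exons), which encodes the endonuclease Regnase-1, had 83.9, 140 and 83.5 CPM in KO-labelled units, against 42.9, 39.9, 39.7 and 56.6 CPM in control units. Every KO-labelled unit was above every control unit, with KO-labelled unit 2 far above the other two. The fitted difference was 1.20 ± 0.21 on the log2 scale (SE), or 2.29-fold, and 1.00 with the GC and length offset. Rc3h1 (ENSMUSG00000040423; chromosome 1, 160906418 to 160974978, plus strand, 20 exons), which encodes Roquin-1, had 188, 192 and 143 CPM in KO-labelled units, against 239, 182, 166 and 247 CPM in control units. The groups overlapped, and the log2 difference was -0.26 ± 0.18 (SE). Its sign turned with the GC and length offset (0.20) and with an offset for effective length (0.14), so no direction is given for the gene.

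Rc3h1 showed a shift between its annotated transcripts. The full-length form (ENSMUST00000161609, 11006 bases, of which 7181 are 3′ UTR) had 12.5, 13.9 and 8 TPM in KO-labelled units, against 19, 13.5, 14.3 and 18.8 TPM in control units. The short form (ENSMUST00000035911, 3476 bases, with a 3′ UTR of 20 bases) had 4.83, 6.59 and 7.43 TPM in KO-labelled units, against 0.101, 0, 0.473 and 0 TPM in control units. It thus took 10.5, 12.5 and 21.9% of the gene's estimated reads in KO-labelled units and at most 0.995% in control units. Both AU-rich words of the gene, the one shown above among them, lie in the long 3′ UTR, which the short form lacks. The 3′ UTR of the full-length form has 37.2% GC and the part before it 50.2%. Genes under 45% GC were low in the KO-labelled units as a whole: the median deviation of these 3794 genes from their mean over units was -0.07, -0.17 and -0.36 log2 in KO-labelled units, against 0.30, 0.15, -0.03 and 0.24 in control units. The part of this trend in the split between the forms was not tested; kallisto divides reads that fit both forms by estimation. In TPM, which divides by length, the gene was at 18.2 ± 2.66 in KO-labelled units and 16.7 ± 2.92 in control units (SD), while in CPM it was at 174 ± 27.5 and 208 ± 41.

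**Figure D2:**
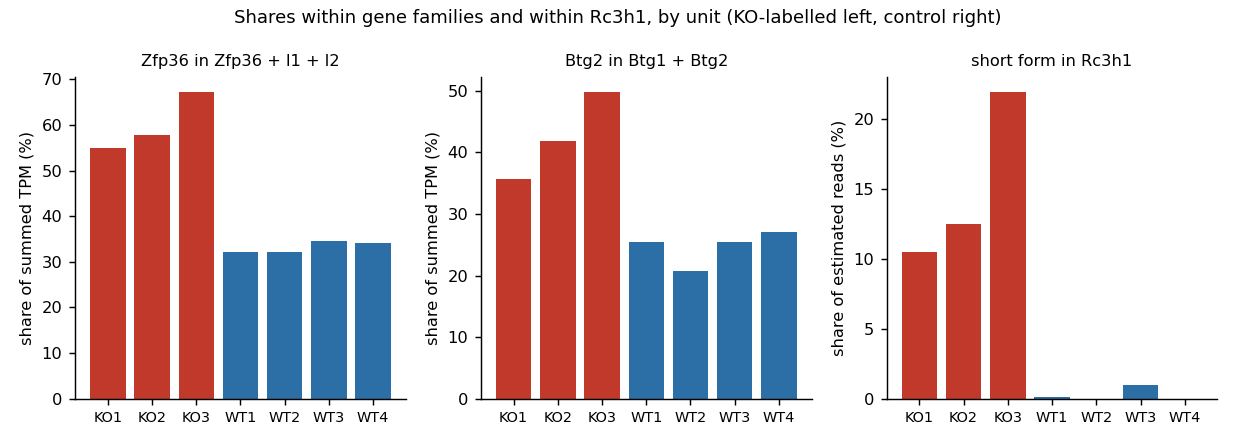
Share of Zfp36 in the summed TPM of the Zfp36 family, of Btg2 in that of Btg1 and Btg2, and of the short form in the estimated reads of Rc3h1, in percent, with 1 bar per unit (KO-labelled red, control blue). Each KO-labelled bar is above every control bar, and the short form reaches 21.9% in KO-labelled unit 3 against at most 0.995% in control units.

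In edgeR's quasi-likelihood fit over all genes, Zfp36, Btg2 and Zc3h12a were called higher in KO-labelled units at a false discovery rate (FDR) of 0.05, and the same 3 genes had units that did not overlap between the groups. Since they were chosen from this contrast, nothing is read from that count or from how often it recurs in fits of the same units. Of all genes tested, 13.6% were called in either direction, 7.07% as higher and 6.52% as lower in KO-labelled units, and 16.7% had higher and 14.1% lower KO-labelled units without overlap. The call of Btg2 held in 1 of 7 fits that each left out 1 unit (without control unit 4) and was lost without any other unit, and it was lost with the GC and length offset, where the log2 difference was 0.91. Reads were ample: the smallest value behind any of these levels was 546 estimated reads, for Zc3h12a in control unit 1. The 2 samples of a unit differed by at most 7.49% in any of the 7 genes. No more than 6.9% of a gene's 31-base words occur in another gene, for Zfp36l1 and its pseudogene. Zfp36, Zfp36l1 and Zfp36l2 each overlap a noncoding gene on the other strand (Gm44710, Gm26669 and AC132455.1), whose reads cannot be told apart in this kit without strand. Rc3h1 overlaps 3 unconfirmed gene models on its own strand (Gm37052, Gm37809 and Gm37653).

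Per length, Zfp36 had the highest level of the 7 genes in KO-labelled units, at 518 ± 103 TPM (SD, n = 3), without overlap with Btg1 at 229 ± 77.6 TPM. Zfp36l2 (188 ± 47.6 TPM), Btg2 (163 ± 37.3 TPM) and Zfp36l1 (162 ± 58 TPM) followed with ranges that overlapped those of their neighbours, and Zc3h12a (52.7 ± 23.2 TPM) and Rc3h1 (18.2 ± 2.66 TPM) were last and apart. In control units Btg1 led with 268 ± 56.9 TPM (SD, n = 4). Zfp36l2 (212 ± 25.7 TPM), Zfp36 (204 ± 24.1 TPM) and Zfp36l1 (197 ± 29.4 TPM) came next, and neighbours in this order had overlapping ranges. Btg2 at 89.1 ± 28 TPM, Zc3h12a at 22.8 ± 4.21 TPM and Rc3h1 at 16.7 ± 2.92 TPM each lay below the gene before them in every control unit. When CPM was divided by the length of the longest transcript, Zc3h12a and Rc3h1 changed places in control units (16.3 and 18.9 CPM per kilobase), and so did Zfp36 and Zfp36l1 (213 and 217 CPM per kilobase). A form of Zc3h12a of only 660 bases held 23.3 of the gene's 52.7 TPM in KO-labelled units, with 10.7 to 13.5% of its estimated reads. In control units that form held 9.6 of 22.8 TPM, with 7.68 to 13% of the reads. Among the genes tested, Zfp36 ranked 247 in KO-labelled units and 539 in control units by mean TPM, and Rc3h1 ranked 5605 and 5837. The length that kallisto used for Zfp36 was 1792 bases, against 2790 bases in the annotation used here, and a shorter length gives a higher TPM.

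**Figure D3:**
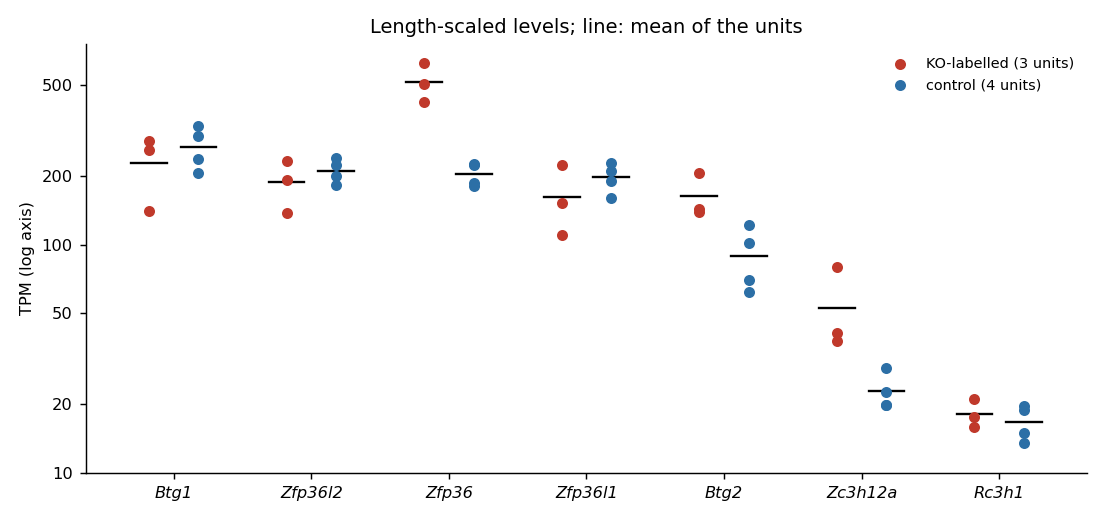
TPM of each gene on a log axis, in the order of the control means, with 1 point per unit (KO-labelled red and left, control blue and right) and a line at the group mean. Zfp36 is the highest gene in KO-labelled units at a mean of 518 TPM, while Btg1, at a mean of 268 TPM, is the highest in control units.

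Across the 7 units the distances between the 7 genes divided the paralogues as the differences between the groups did. Group means were not removed, so the distances include the contrast with which the genes were chosen and are no separate result. Likeness was measured as the root mean square difference of log2 CPM after each gene's mean over units was removed, so 0 is identical; the units share their libraries, and the values are descriptive. Zfp36l2 was nearest to Rc3h1 (0.107), Zfp36l1 (0.125) and Btg1 (0.159), and Zc3h12a to Zfp36 (0.233) and Btg2 (0.249), whereas the distance was 0.864 between Zfp36 and Zfp36l1 and 0.638 between Btg2 and Btg1. Among 8635 other coding genes with a mean of at least 10 CPM, the 3 most like Zfp36 were Mafk (0.155), a small Maf transcription factor, Gadd45a (0.157), a stress response gene, and Zfand2a (0.178). Those most like Btg2 were Hexim1 (0.109), an inhibitor of the elongation factor P-TEFb, Tob2 (0.133), itself a member of the BTG/TOB family, and Gadd45b (0.137). Those most like Zc3h12a were Klf2 (0.0785), a transcription factor of quiescent T cells, Kdm6b (0.132), a histone H3 lysine demethylase, and Zfand2a (0.153). Klf2 had 437, 660 and 447 CPM in KO-labelled units, against 224, 210, 210 and 326 CPM in control units, with the same peak in KO-labelled unit 2 as Zc3h12a. Zfp36l2 was most like the helicase gene Ddx5 (0.0408), the deadenylase subunit gene Pan3 (0.0471) and Faim (0.062). For the others these were Grk1 (0.0585), Clk1 (0.102) and Crem (0.104) for Zfp36l1, P2ry10 (0.0674), Slc38a6 (0.0972) and Cdkn1b (0.101) for Btg1, and Pcf11 (0.0332), Chd1 (0.0614) and Rbbp6 (0.0645) for Rc3h1.

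The other members of these families did not pass the test. Of 9 relatives, 7 had enough reads, with a median log2 difference of -0.26, against 0.06 for all genes tested. With edgeR 0 of the 7 passed FDR 0.05, and 1 higher and 2 lower genes had an unadjusted p under 0.05. The DESeq2 Wald test called 1 higher and 2 lower, and limma-voom called 1 higher. Of all 15775 genes tested, 13.6% passed FDR 0.05 with edgeR, and 5140 had an unadjusted p under 0.05. DESeq2 called 1840 of all genes higher and 1702 lower, and limma-voom 1248 and 1084. Rc3h2 (Roquin-2) had 142, 154 and 87.2 CPM in KO-labelled units, against 216, 186, 163 and 214 CPM in control units (edgeR adjusted p = 0.0655). Its groups did not overlap, yet its log2 difference of -0.61 ± 0.20 (SE) was 0.09 with the GC and length offset, and its GC content is 38.3%. Zc3h12d (Regnase-4), a relative of Zc3h12a found in lymphocytes, had 68.8, 84 and 59.9 CPM in KO-labelled units, against 114, 98.5, 86.5 and 102 CPM in control units. This difference, opposite to that of Zc3h12a, was -0.50 ± 0.15 (edgeR adjusted p = 0.0535), and it passed with the offset (-0.61, adjusted p = 0.029). Tob2, which like Btg2 binds the CCR4-NOT complex, had 116, 141 and 121 CPM in KO-labelled units, against 87.8, 63.2, 56.9 and 107 CPM in control units (log2 difference 0.68 ± 0.21, edgeR adjusted p = 0.0577). Zc3h12b, Zc3h12c, Btg3 and Tob1 overlapped between groups, and Zfp36l3 and Btg4 had too few reads.

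Where other mRNA binders or genes of the decay machinery passed edgeR's test, they were lower in KO-labelled units. Together with the relatives, 85 tested genes of binding, deadenylation, decapping, exosome and nonsense-mediated decay had a median log2 difference of -0.06. With edgeR at FDR 0.05, 12 of the 85 (14.1%) fell and 0 rose. Of all genes tested, 6.52% fell, 7.07% rose and 13.6% were called in either direction. The lists were drawn up with earlier results of these data known, so such counts are a description. At an unadjusted edgeR p under 0.05, 10 were higher and 21 lower, while 5140 of the 15775 genes tested passed in either direction. DESeq2 called 5 higher and 17 lower (1840 and 1702 of all genes). With limma-voom 1 was higher and 13 were lower (1248 and 1084 of all genes). Only 3 of the 12 (Hnrnpd, Lsm7 and Exosc8) were also lower with the GC and length offset. With it 1 of the 85 was higher and 5 were lower, beside 914 higher and 514 lower of the 15775 genes tested. Without control unit 4, 1 of the 12 (Dcp2) was still lower (adjusted p of the 12 between 0.0307 and 0.122), and without KO-labelled unit 3, 3 were (0.0228 to 0.142). Without control units 1 or 2 or KO-labelled unit 2, 5 of the 12 were still lower, and without KO-labelled unit 1, 8.

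Of 16 other AU-rich element binders and their regulators, 5 fell. Tial1, a translational repressor, had 134, 137 and 117 CPM in KO-labelled units, against 215, 193, 166 and 221 CPM in control units (edgeR log2 difference -0.62 ± 0.14 SE, adjusted p = 0.0203), and its relative Tia1 was at -0.67 ± 0.16 (adjusted p = 0.028). With the offset both were near 0 (-0.09 and -0.11), and their GC contents are 43.1 and 40.8%. Hnrnpd (AUF1), a destabilizing binder, fell by 0.52 on the log2 scale (adjusted p = 0.0303), and Elavl1 (HuR), which stabilizes AU-rich mRNAs, fell by 0.41 (adjusted p = 0.0399). Celf1, named after its value was seen, completes the 5 (-0.48, adjusted p = 0.0472). Among 17 deadenylation genes Cnot6l and Cnot7, catalytic subunits of CCR4-NOT, fell, with Cnot6l at 211, 208 and 146 CPM in KO-labelled units, against 343, 316, 270 and 388 CPM in control units (-0.81 ± 0.18, edgeR adjusted p = 0.0189). Both genes (38.5 and 39% GC) were near 0 with the offset, at -0.09 and 0.11. Of 19 decapping genes Dcp2, the decapping enzyme, fell by 0.77 (edgeR adjusted p = 0.00894), also in all 7 fits that left out 1 unit but not with the offset (adjusted p = 0.0868), and Ddx6 and Lsm7 fell too; 64.8% of the 31-base words of Lsm7 occur in another gene, so its value is uncertain. Exosc8 of the exosome core and Upf3b of nonsense-mediated decay were the calls of the last lists, at -0.52 and -0.64 (edgeR adjusted p = 0.0207 and 0.0339).

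**Figure D4:**
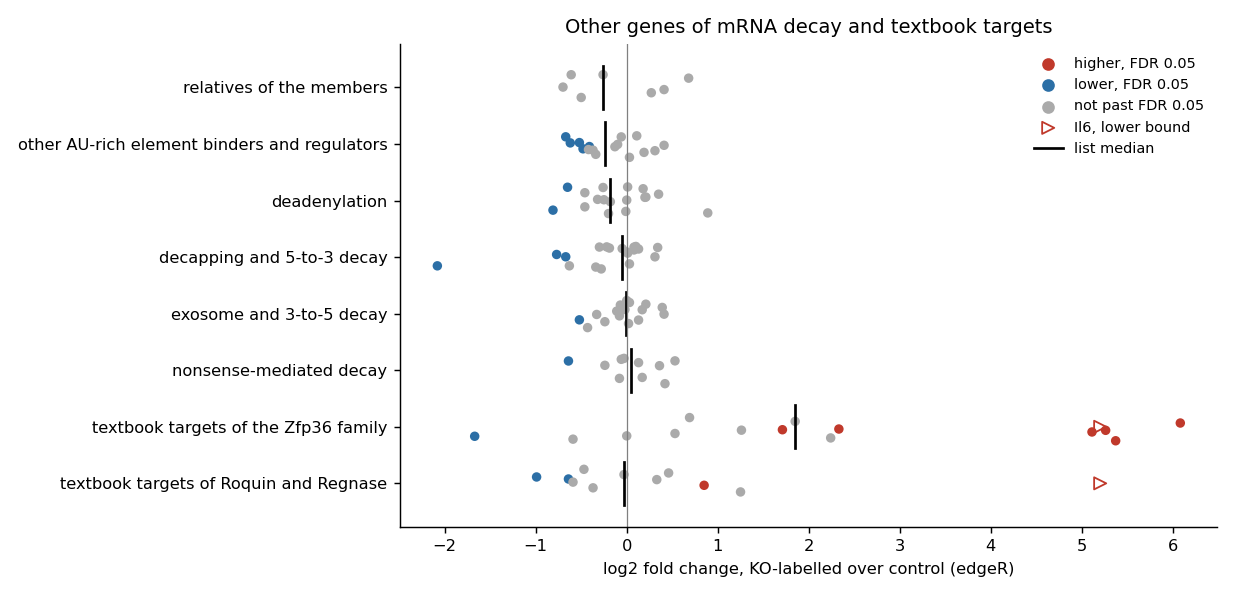
Log2 fold change (KO-labelled over control, edgeR) of every tested gene of 8 lists, with genes past FDR 0.05 in red (higher) or blue (lower), and the list median as a black line. The lists of relatives, other binders and decay machinery have medians between -0.26 and 0.05, while the textbook targets of the Zfp36 family have a median of 1.85. Il6, with 0 reads in control units, is drawn at its lower bound.

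Textbook targets of the Zfp36 family, most of them known from macrophages and fibroblasts, included several that were higher in KO-labelled units. Of 20 such genes 15 had enough reads, and with edgeR 7 rose and 1 fell, beside 7.07% higher and 6.52% lower of all genes tested. Their median log2 difference was 1.85, which is the same with Il6 at its lower bound, against 0.06 for all genes tested. Both lists of textbook targets were drawn up with earlier results of these data known, so their counts and medians are a description. With the GC and length offset 6 of the 15 were called, each of them higher, beside 914 higher and 514 lower of all 15775 genes tested. Ccl3, a chemokine, had 24.6, 27.8 and 17.4 CPM in KO-labelled units, against 0.708, 0.195, 0.2 and 0.381 CPM in control units (6.08 ± 0.44 SE, adjusted p = 0.0002). Il1b had 16.6, 11.8 and 12.8 CPM in KO-labelled units, against 1.02, 0.0488, 0.0999 and 0.457 CPM in control units (5.26 ± 0.83, edgeR adjusted p = 0.01). Il6 had 180 reads over the KO-labelled units and 0 over the control units, which with a floor of 3 reads over the control group makes it at least 36.8-fold higher. Ier3, an early response gene, and Ccnd1, a cyclin, rose as well (5.37 and 2.33, edgeR adjusted p = 0.00116 and 0.012), with only 16 and 99 reads over the control units. These 5 calls held in every fit that left out 1 unit. Those of Ptgs2 (5.11, adjusted p = 0.0363) and Vegfa (1.71, adjusted p = 0.0358) held in 2 of 7 such fits each: Ptgs2 was lost without any KO-labelled unit or control units 2 or 4 (adjusted p up to 0.0965), and Vegfa without KO-labelled units 1 or 3 or control units 1, 3 or 4 (up to 0.136). Over the control units Ptgs2 had 14 reads and Vegfa 129. The summed monocyte and macrophage markers were raised in the same units (291 to 754 CPM in KO-labelled units, 72.6 to 157 CPM in control units). These markers belong to cells that make Ccl3, Il1b, Il6 and Ptgs2, and their part in these differences was not tested.

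The other tested targets of the family fell or did not pass. Of all 15 tested targets, 11 were higher and 2 lower in KO-labelled units without overlap between the groups. The shares of all genes tested were 16.7% and 14.1%. Tnf, the classic target of tristetraprolin, had 13.3, 16.7 and 16.7 CPM in KO-labelled units, against 23, 27.5, 24 and 19 CPM in control units. The groups did not overlap, but the difference of -0.59 ± 0.19 (SE) did not pass (edgeR adjusted p = 0.0625). Il10 had 1.81, 1.96 and 2.11 CPM in KO-labelled units, against 7.24, 6.25, 2.72 and 8.99 CPM in control units. It fell by 1.67 (edgeR adjusted p = 0.0285), a call that was lost without any KO-labelled unit or control units 2 or 4 (adjusted p up to 0.0841). Fos (1.85 ± 0.95) and Dusp1 (1.26 ± 0.68) varied widely among control units, with Fos at 808, 897 and 1365 CPM in KO-labelled units, against 468, 74.6, 48.4 and 546 CPM in control units, and neither passed (edgeR adjusted p = 0.245 and 0.26). For Fos and Dusp1 every KO-labelled unit was above every control unit. Myc was at 0.00 ± 0.19 (edgeR adjusted p = 0.995).

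Of 13 textbook targets of Roquin and Regnase 11 had enough reads, with a median log2 difference of -0.03; with edgeR 2 rose and 2 fell, beside 7.07% higher and 6.52% lower of all genes tested, and Il6 and Tnf also belong to the list above. Icos, the costimulatory receptor whose mRNA Roquin-1 is best known to restrain, had 77.3, 75.4 and 64.4 CPM in KO-labelled units, against 149, 163, 113 and 148 CPM in control units. It fell by 0.99 on the log2 scale (edgeR adjusted p = 0.00461), or by 0.56 with the GC and length offset (adjusted p = 0.0151). Tnfrsf4 (OX40) had 66, 70.7 and 65.4 CPM in KO-labelled units, against 89.2, 119, 110 and 103 CPM in control units, and fell by 0.64 (edgeR adjusted p = 0.014). Both receptors mark activated and regulatory T cells, whose marker sum was also lower in KO-labelled units (2896 to 3919 CPM, against 4573 to 5489 CPM); the part of that in these differences was not tested. Nfkbid, an atypical inhibitor of NF-kB, rose by 0.85 (edgeR adjusted p = 0.0345), but this call was lost with the offset (0.70, adjusted p = 0.176) and without KO-labelled unit 2 or any 1 of the 4 control units (up to 0.0907). Irf4 had 76.9, 70.1 and 68.5 CPM in KO-labelled units, against 61.1, 55.5, 48.9 and 62.6 CPM in control units, without overlap. It did not pass (0.33 ± 0.13 SE, edgeR adjusted p = 0.102), but it did with the offset (0.43, adjusted p = 0.0251). Ctla4, Nfkbiz, Rel and Tfrc did not pass.

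The AU-rich word was then counted in the 3′ UTRs of all 13951 tested genes with an annotated one. The 497 genes with 3 or more words had a median log2 difference of -0.20, and 6.04% were called higher and 13.5% lower with edgeR. The 10108 genes with no word had a median of 0.11, and 7.59% were called higher and 5.41% lower; genes with 1 or 2 words lay between, at -0.03 and -0.13. The groups of genes also differ in composition, with a median GC content of 44.4% for 3 or more words and 51.1% for none. With the GC and length offset the medians were 0.12 and 0.09, and genes with 3 or more words were called higher in 10.1% and lower in 4.23% of cases, against 5.73% and 2.99% of genes with none. Zfp36 itself, with 3 words, was at 1.29 with that offset, and Zfp36l1 and Zfp36l2, with 3 words each, were at -0.25 and -0.35.

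**Figure D5:**
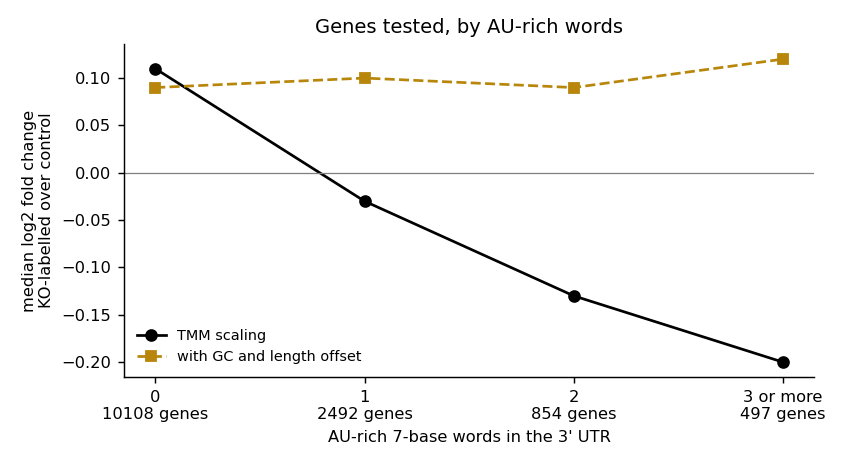
Median log2 fold change (KO-labelled over control) of tested genes by the number of AU-rich 7-base words in the 3′ UTR, with the usual scaling (solid) and with a GC and length offset (dashed). The solid line runs from 0.11 at 0 words to -0.20 at 3 or more words, and the dashed line stays between 0.09 and 0.12.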

How the data were processed

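RNA of sorted splenic regulatory T cells was sequenced from a library kit that does not keep strand, per the labels' protocols. The deposited tables (14, 1 per sample) are kallisto output on GRCm38, per the submitters' processing notes; neither its version nor its annotation is given in the sources used here. The authors deposited expected counts (estimated reads per transcript, not normalized) and TPM values (scaled by effective length to the same total), and transcript lengths, per the file headers. Of 88198 transcripts, 2079 had no gene in GENCODE M21 (1.17 to 1.28% of reads) and were left out. Only 76487 transcripts had the same length in the deposited tables and in GENCODE M21. GC content, 3′ UTRs and AU-rich words came from GENCODE M21 also where the lengths differed.

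Counts were summed per gene and over the 2 samples of a unit, which differed little (chi-square per degree of freedom 1.44 to 1.9, against 12.8 to 202 between units of a group), and rounded to whole numbers. TPM is the mean of the 2 samples. Whether units are separate animals is only partly stated, so p-values measure the spread between units, which may be partly technical. edgeR 4.0.16 (R 4.3.3; filterByExpr, TMM, robust quasi-likelihood fit, group as the only term, Benjamini-Hochberg over all 15775 genes, FDR 0.05) was tested on simulated data first. SE was derived from the F statistic. Alternatives were DESeq2 1.42.0 size factors and Wald test, limma 3.58.1 voom, library-size and upper-quartile scaling, no filter or at least 1 CPM in 3 units, an effective-length offset, an offset from a GC and length spline (5 degrees of freedom), a replicate block, and leaving out each unit.

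The genes described and the lists were chosen with earlier results of these data known. Named are the 7 genes, up to 4 called genes of each list by adjusted p, any gene of the relatives and target lists, the 3 likest genes, and Tln1; marker genes only check the sort. A gene of a target list, counted with its list, is not reported here. Figures were drawn with matplotlib 3.10.9.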

Additional observations from a re-analysis of the deposited data

Results flagged for a closer look

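One value stood apart within its group. Cnot7, a catalytic subunit of the CCR4-NOT deadenylase, had 87.1, 83.3 and 60.8 CPM in KO-labelled units, against 129 to 131 CPM in 3 of the control units and 94.2 CPM in control unit 3. The gap between control unit 3 and the others was 0.967 of the group's range. It was 1 of 36 groups of values looked at in this way, and chance alone flags about 1 group in 20.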

How the results depend on the processing

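The differences of Zfp36 (1.29 to 1.49 when 1 unit was left out), Btg2 (0.77 to 1.12) and Zc3h12a (0.90 to 1.33) kept their sign in all 18 alternatives. These fits reuse the units of the contrast with which the genes were chosen, so nothing is read from the kept sign. Of the genes with overlapping groups, Zfp36l1 ranged from -0.50 to -0.08, Zfp36l2 from -0.25 to 0.01, Btg1 from -0.35 to 0.03 and Rc3h1 from -0.36 to -0.13 when 1 unit was left out, and Rc3h1 was at 0.20 with the GC and length offset and 0.14 with the effective-length offset. The 2144 genes called became 3542 with the DESeq2 Wald test, 1428 with the GC and length offset (64% of them higher, against 52.1%) and 758 to 1905 when 1 unit was left out. The 23 called genes of the pathway lists became 36, 15 and 9 to 22. The median of genes with 3 or more AU-rich words, -0.20, was 0.12 with the GC and length offset, -0.09 with the effective-length offset and -0.07 for genes with the 9-base form. By CPM per length of the longest transcript, 3 of the 7 genes kept their place in the order of control levels. The cause of these changes was not tested beyond the offsets.

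Deviations of same-numbered units correlated at 0.027, -0.123 and -0.054, and those of other pairs of units at -0.193 to 0.185. Since the other pairs span a wider range, these values cannot decide whether same-numbered units were paired. With a replicate block over units 1 to 3, 553 genes and 6 pathway genes were called, and with the block and the GC and length offset 272 and 3. The targets of the Zfp36 family gave 4 and 2 calls. Of the 7 genes, 3 were called with the block and, with the offset added, only Zfp36, so that Btg2 and Zc3h12a were lost; Btg1 was then at 0.29, Rc3h1 at 0.22 and the AU-rich median at 0.13.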
